A study of Mus musculus with 8 samples.

Results

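Chromatin accessibility was followed at the nuclear genes that encode the respiratory complexes of mitochondria, in dendritic cells with and without OPA1. The genes were taken by symbol from RefSeq gene models on the mouse assembly GRCm38: protein-coding genes whose symbol begins with Nduf, Uqcr or Atp5, or with Cox followed by 4 to 8, and the genes Sdha, Sdhb, Sdhc and Sdhd, leaving out Cox6a2. This gave 95 genes of 21887 protein-coding gene models. Each gene was represented by 1 accessible region, the one with the highest mean level among the regions within 1 kb of either end of the gene span. For 84 of the 95 genes such a region existed, and all 84 regions were tested. No region stood for more than 1 of these genes, though many also touch a gene outside the rule. The genes on mitochondrial DNA were outside the rule.

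The respiratory complexes sit in the inner mitochondrial membrane. Complex I oxidises NADH, complex II oxidises succinate, complex III passes electrons from ubiquinol to cytochrome c, complex IV reduces oxygen, and complex V uses the proton gradient that complexes I, III and IV build to make ATP. Most of their subunits are encoded in the nucleus, at many separate loci, and their promoters are known for sites of the factors NRF1, GABPA, YY1 and SP1. OPA1 is a GTPase of the inner membrane that fuses mitochondria and shapes the cristae, the folds in which these complexes are packed.

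The cells were conventional type 1 dendritic cells, or cDC1, which were sorted from the spleen of mice. ATAC-seq was used, an assay that reads out open chromatin through a transposase that cuts exposed DNA and tags it. The 2 groups were 4 WT libraries and 4 libraries labelled OPA1-deficient (OPA1KO), the latter from CD11c-Cre;OPA1 flox mice. In these mice the CD11c promoter drives Cre, so that deletion reaches CD11c-expressing cells and not cDC1 alone. The labels give no treatment beyond the genotype, and neither the age or number of animals, the Cre status of the WT mice, nor the part of Opa1 that is flanked by loxP sites. Nothing in the labels ties a library to an animal, so a p-value here covers only the spread among the 8 libraries, which may be technical.

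Libraries held 4660826 to 7590578 counts over 59906 regions, of which 59247 were tested. A level is a TMM-scaled CPM, the count of a region scaled to the size of its library with edgeR's factors (0.947 to 1.03). A difference is a log2 fold change, OPA1KO minus WT, ± standard error. Of 12 cDC1 marker genes, 11 had a tested region at a gene end, while Itgae had none. The 11 included Xcr1 (18.2 CPM in WT, in a region that also touches Fyco1), Clec9a (9.89 CPM) and Irf8 (35.1 CPM). Of these 11, 6 were lower and edgeR called 0. Markers of other cell types also had tested regions, and edgeR called 0 of them. In WT some stood above Xcr1 and Clec9a, such as Cd3d of T cells (56.3 CPM) and Tcf4 of plasmacytoid dendritic cells (53.6 CPM). So did Sirpa of type 2 dendritic cells (35.1 CPM) and S100a9 of neutrophils (34.1 CPM). Others were low, such as Siglech (4.01 CPM) and Ms4a1 of B cells (7.61 CPM). These levels alone do not tell cDC1 from other cells. Itgax, the CD11c gene whose promoter drives Cre, was at 22.3 ± 4.63 CPM in WT against 30.8 ± 3.49 CPM in OPA1KO libraries (SD, n = 4 each, 0.47 ± 0.15, unadjusted p = 0.00386, edgeR adjusted p = 0.503), and Clec9a had a log2 fold change of −0.33 ± 0.21 (edgeR adjusted p = 0.846). At the region of Opa1, levels were 42.1 ± 3.85 CPM in WT against 39.2 ± 3.73 CPM in OPA1KO libraries (SD, n = 4 each), which does not check the deletion because the deleted part is not given. Of 10 regions of monocyte and macrophage marker genes, 9 were lower in OPA1KO libraries, against 50.7% of all tested regions and 61.7% of other gene-end regions, and 3 had an unadjusted p under 0.05, against 6.38% of all tested regions. Of the 10, edgeR called 0. The lowest fold changes were at C1qb (7.68 ± 1.72 CPM in WT against 4.19 ± 0.769 CPM in OPA1KO libraries, SD, n = 4 each, −0.87 ± 0.26, edgeR adjusted p = 0.417), where the groups did not overlap, and at C1qc (−0.66 ± 0.32), Vcam1 (−0.63 ± 0.26), C1qa (−0.62 ± 0.41) and Spic (−0.41 ± 0.21). Levels were low at C1qa (3.09 CPM in WT against 1.98 CPM in OPA1KO libraries) and C1qc (5.03 against 3.16 CPM). Adgre1 alone was higher (8.89 against 10.3 CPM, 0.20 ± 0.23), and Csf1r was near 0 (−0.042 ± 0.17). Over the 10 regions the summed levels ran from 144 to 181 CPM in WT against 134 to 162 CPM in OPA1KO libraries. Cd68, at 95.3 CPM in both, made up most of that sum, and its region also touches an end of Eif4a1. Over the 9 other regions the sums were 59.3, 69.97, 70.7 and 71.2 CPM in WT against 59.3, 56.6, 52.0 and 54.9 CPM in OPA1KO libraries, so that only WT replicate 1 and OPA1KO replicate 1 met. The part of this difference in the values below was not tested. In material from many cells, a region open in fewer cells and a region less open in each cell cannot be told apart.

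Promoters of the genes on which the results turn are printed first, from the RefSeq promoter table on GRCm38.p6, each reading 5′ to 3′ on the strand of the gene from 250 bases before the start of transcription to 50 after it. Capitals mark exact matches on either strand to CCGGAAG, the core of the site of ETS factors such as GABPA, to GCGCATG, one arm of the palindromic NRF1 site, and to ATGGCGG, the YY1 core. Sdhb and Sdhd represent complex II, Ndufb5 had the highest density of accessibility, the Atp5j window faces the gene of GABPA itself, and Cox6b1 and Cox6b2 had the lowest and highest fold change.

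Sdhb, chr4:140961021-140961320, plus strand: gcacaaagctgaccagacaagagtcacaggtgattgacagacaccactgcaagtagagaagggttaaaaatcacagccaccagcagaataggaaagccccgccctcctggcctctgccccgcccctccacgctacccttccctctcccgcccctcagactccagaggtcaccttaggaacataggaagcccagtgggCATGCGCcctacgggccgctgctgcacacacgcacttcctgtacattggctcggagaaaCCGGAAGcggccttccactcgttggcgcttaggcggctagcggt
Sdhd, chr9:50603800-50604099, minus strand: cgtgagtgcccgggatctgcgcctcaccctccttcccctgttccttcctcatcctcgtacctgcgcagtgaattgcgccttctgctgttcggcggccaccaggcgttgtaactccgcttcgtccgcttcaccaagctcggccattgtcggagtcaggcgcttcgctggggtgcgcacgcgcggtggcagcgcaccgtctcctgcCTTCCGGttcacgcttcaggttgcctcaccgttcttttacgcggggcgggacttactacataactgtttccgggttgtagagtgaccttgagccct
Ndufb5, chr3:32736813-32737112, plus strand: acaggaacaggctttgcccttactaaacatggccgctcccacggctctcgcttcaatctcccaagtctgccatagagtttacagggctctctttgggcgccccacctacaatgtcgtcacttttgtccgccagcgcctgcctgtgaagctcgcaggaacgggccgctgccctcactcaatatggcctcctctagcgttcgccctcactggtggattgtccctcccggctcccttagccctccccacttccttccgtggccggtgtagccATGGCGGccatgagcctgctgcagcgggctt
Atp5j, chr16:84834927-84835226, minus strand: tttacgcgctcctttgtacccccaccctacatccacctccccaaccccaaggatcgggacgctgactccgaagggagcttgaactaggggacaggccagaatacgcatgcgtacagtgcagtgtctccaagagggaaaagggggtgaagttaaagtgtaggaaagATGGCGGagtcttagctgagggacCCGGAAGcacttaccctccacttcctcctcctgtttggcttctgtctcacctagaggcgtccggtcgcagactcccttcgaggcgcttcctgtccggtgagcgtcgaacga
Cox6b1, chr7:30626065-30626364, minus strand: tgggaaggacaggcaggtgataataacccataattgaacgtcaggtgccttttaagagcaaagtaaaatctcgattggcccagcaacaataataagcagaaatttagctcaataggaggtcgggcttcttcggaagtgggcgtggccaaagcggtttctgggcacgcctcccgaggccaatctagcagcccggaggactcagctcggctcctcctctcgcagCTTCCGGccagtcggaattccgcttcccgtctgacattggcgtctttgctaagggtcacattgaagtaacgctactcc
Cox6b2, chr7:4753045-4753344, minus strand: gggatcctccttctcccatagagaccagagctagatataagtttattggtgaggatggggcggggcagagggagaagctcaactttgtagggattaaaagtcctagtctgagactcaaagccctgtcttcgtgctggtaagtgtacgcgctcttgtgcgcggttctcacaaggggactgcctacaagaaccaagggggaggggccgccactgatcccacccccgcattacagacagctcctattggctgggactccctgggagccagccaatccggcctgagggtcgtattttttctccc

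Distances are given to the first letter of a match. Sdhb, which encodes the iron-sulfur subunit of succinate dehydrogenase, carried both an NRF1 arm, 53 bases before the start, and an ETS core, 6 bases after it. The Sdhd and Cox6b1 windows each held 1 ETS core, 46 and 28 bases before the start. In Ndufb5 the YY1 core lay 19 bases after the start. The Atp5j window shown held a YY1 core and an ETS core, 85 and 61 bases before the start. The table gives Atp5j another window for a start further upstream, under the same accessible region, which held none of the 3 motifs and faced no other gene. Cox6b2 held none of the 3 motifs.

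Of the 84 genes with a region, 70 had an entry in the promoter table, and the chosen region overlapped the promoter window in 68. In Ndufb6 the chosen region lay at the other end of the gene, 9343 bp from the window, where it also touched the ends of Smim27 and Topors. The region at the Ndufb6 promoter itself was at 37.8 CPM in WT against 34.7 CPM in OPA1KO libraries (log2 fold change −0.12 ± 0.12, edgeR adjusted p = 0.920). In Ndufa11 the chosen region lay 343 bp from the window, at an end of Vmac. For the other 14 genes the table gave no window, and whether their region lies at the start of the gene was not determined.

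Counting all 95 genes, 78 had a promoter entry and 73 of these (93.6%) had a tested region over the window, against 9140 of 17414 other protein-coding genes (52.5%). In 24 of the 78 (30.8%) another gene started head to head on the opposite strand within 1 kb, against 8.96% of other genes. Among genes with an open window the shares were 32.9% and 15.7%. At the promoters printed here these partners were Mrpl47, a mitochondrial ribosome gene opposite Ndufb5, Timm8b, a mitochondrial import gene opposite Sdhd, and Gabpa opposite Atp5j. Among the others were Rps28, a cytosolic ribosome gene opposite Ndufa7, Ercc8, a DNA repair gene opposite Ndufaf2, and Cpsf2, an mRNA cleavage gene opposite Ndufb1. By gene ends, the chosen region lay within 1 kb of another gene in 43 of 84 genes (51.2%), against 3105 of 11913 other genes (26.1%), so that at these loci a value stands for more than 1 gene.

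Motif content was compared over the 78 open promoter windows of the respiratory genes, which belong to 73 genes, 10573 open windows of other genes and all 21263 windows of protein-coding genes. The NRF1 arm was present in 17.9%, 7.54% and 4.80% of them, the YY1 core in 16.7%, 8.70% and 5.25%, and the ETS core in 24.4%, 19.7% and 11.6%. At least 1 of the 3 was found in 38 of the 78 respiratory windows (48.7%), against 31.6% of other open windows. The GC box GGGCGG, the site of SP1, went the other way, with 43.6%, 68.6% and 46.2%. The CCAAT box, bound by NFY, was in 41.0%, 38.6% and 38.2%, and the TATA box TATAAA in 8.97%, 5.83% and 12.6%. The median GC content was 58.8%, 62.0% and 56.3%. Because the NRF1 site is a palindrome, both of its arms can match and overlap, and each window was counted once. Within the respiratory windows 90.9% of the 22 ETS matches lay within 100 bases of the start, against 75.6% of 2554 in other open windows. The shares were closer for the NRF1 arm (77.3% of 22 against 70.2% of 1163) and the YY1 core (76.9% of 13 against 72.4% of 974). These shares were not tested. A match gives only the letters in the window and does not show that a factor was bound.

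**Figure D1:**
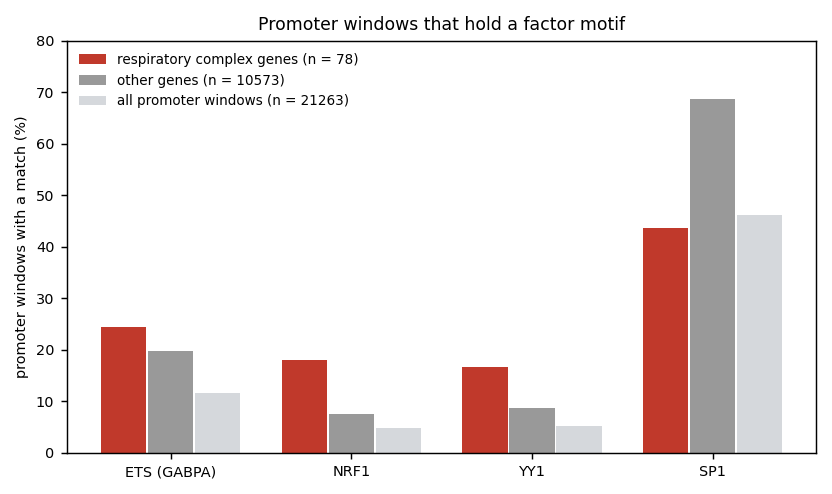
Share of promoter windows (percent, y axis) that hold an exact match to the ETS (GABPA), NRF1, YY1 or SP1 motif, for open windows of respiratory complex genes (red, 78 windows), open windows of other genes (dark grey, 10573) and all windows of protein-coding genes (light grey, 21263). NRF1 stood at 17.9% against 7.54% of other open windows, and SP1 at 43.6% against 68.6%.

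Respiratory complex genes were among the accessible gene ends of WT cDC1. Their median level was 45.8 CPM in WT, against 32.8 CPM at 10482 other gene-end regions chosen in the same way, and per kb of region it was 84.5 against 54.1 CPM. Of these regions 51.2% also touch another gene, against 16.0% of the others with each region counted once, or 26.1% counted by gene. Among regions that touch another gene, each counted once, the medians were 54.5 and 45.3 CPM. Among regions that touch no other gene the medians were 37.5 CPM for 41 respiratory genes and 30.5 CPM for 8808 others, or 72.1 and 50.8 CPM per kb. These levels were not tested. The density was highest at Ndufb5, an accessory gene of complex I (202 CPM per kb in WT), Atp5b, the catalytic beta subunit of ATP synthase (194 CPM per kb), and Ndufaf8, an assembly factor gene (163 CPM per kb). It was lowest at Cox6b2, the testis isoform of a complex IV subunit (11.8 CPM per kb), at Ndufaf1, another assembly factor gene (14.7 CPM per kb), and at Atp5l, which encodes subunit g of ATP synthase (17.9 CPM per kb). The 84 regions lay on 19 chromosomes, 3 of them on X, with no more than 7 on any one.

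No respiratory complex gene passed the test between OPA1KO and WT cDC1. By edgeR's quasi-likelihood test 0 of 84 had an adjusted p under 0.05, against 12 of 59247 tested regions (0.0203%) and 0 of 10482 other gene-end regions (0.0%), and the smallest adjusted p among the 84 was 0.717. DESeq2 and limma-voom also called 0 of 84. At an unadjusted p under 0.05 there were 2, Uqcrb and Cox6b1, both lower, against 6.38% of all tested regions and 4.06% of other gene-end regions (3.17% lower). DESeq2 gave 2 and limma-voom 3 at that threshold. The 4 OPA1KO and 4 WT libraries did not overlap in 2 of the 84, Uqcrb and Atp5j, both lower, against 3.18% of other gene-end regions (2.31% lower) and 3.95% of all tested regions. These counts are near the background, and none of them stands for a result about the group.

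The fold changes were small and lay on both sides of 0. They ran from −0.33 at Cox6b1 to 0.42 at Cox6b2 with a median of −0.036, and the median over other gene-end regions was −0.035. Lower values were found at 57 of 84 respiratory genes (67.9%) and at 61.7% of other gene-end regions. That count was 45 with loess offsets and 45 where only gene-end regions were fitted, with medians of −0.0086 and −0.0058. Without WT replicate 2, it was 44 with a median of −0.0058. The 95% interval of the fold change, unadjusted for the number of genes, lay within 1.5-fold of no change in either direction at 79 of the 84. The exceptions were Ndufa9, Ndufa1, Ndufaf1, Cox6b1 and Cox6b2. That share, 94.0%, compares with 88.8% of 8593 other gene-end regions within the same range of WT levels. For most of these genes the data therefore limit a change at the chosen region to less than 1.5-fold, within the spread of these libraries.

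**Figure D2:**
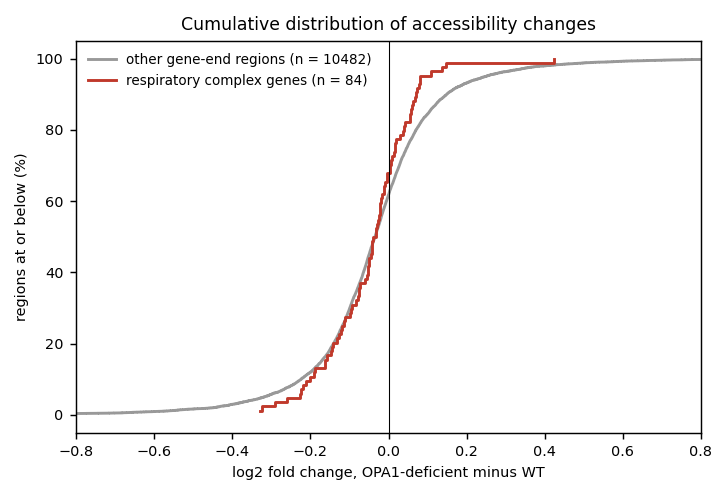
Cumulative share of regions (percent, y axis) at or below each log2 fold change (x axis, OPA1KO minus WT), for 84 respiratory complex genes (red) and 10482 other gene-end regions (grey). The curves cross near their medians of −0.036 and −0.035.

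**Figure D3:**
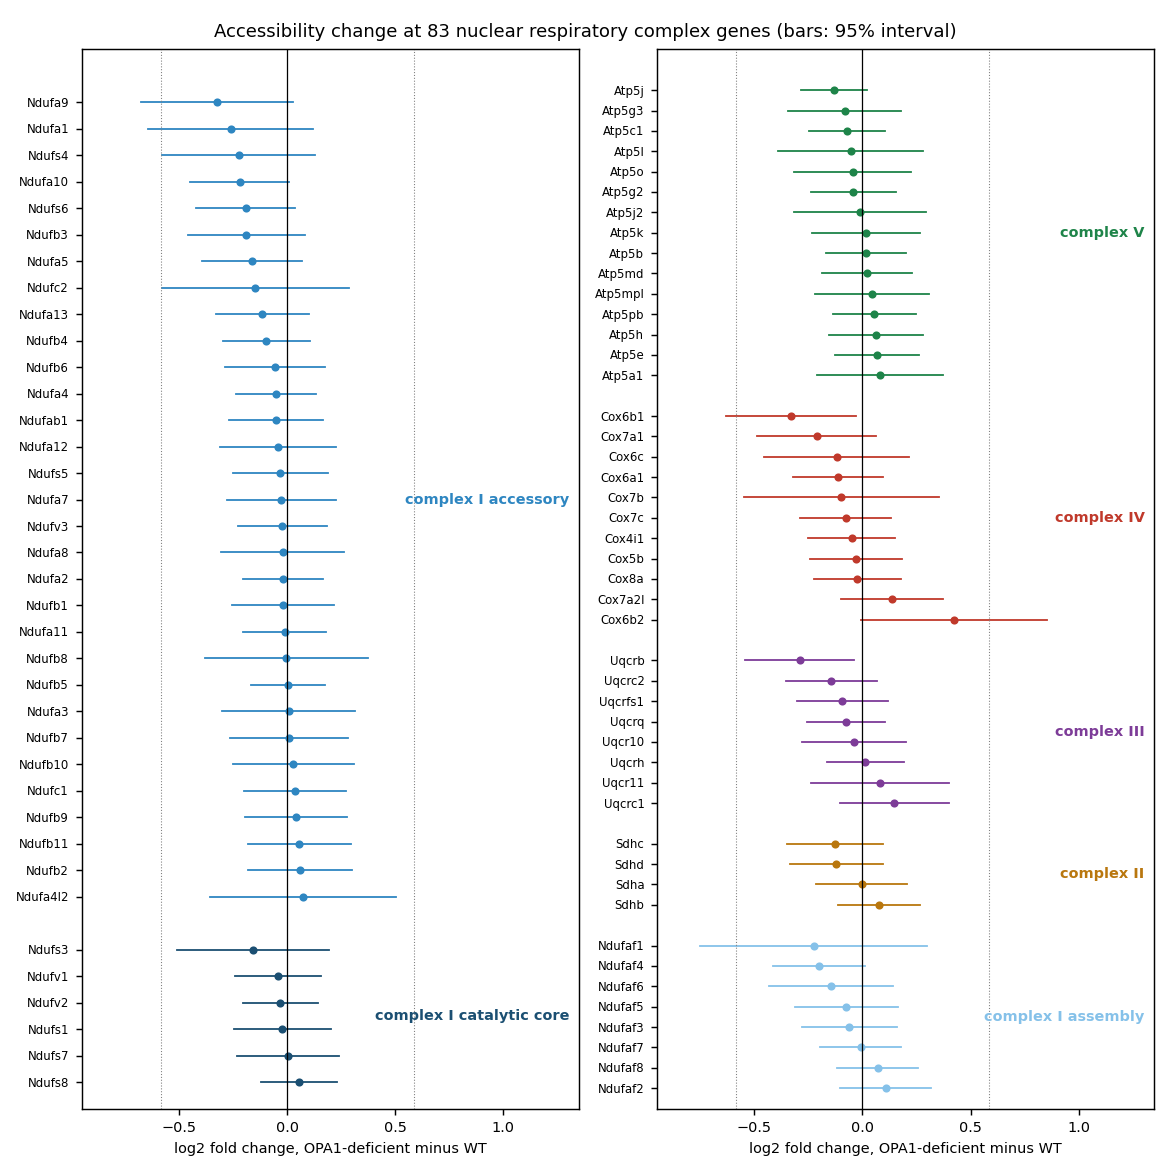
Log2 fold change (x axis, OPA1KO minus WT, points) with its 95% interval (bars) for 83 of the 84 genes, grouped and coloured by role. Dotted lines mark a 1.5-fold change in either direction, and 78 of the intervals drawn lie between them.

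Summed over the 84 regions, levels in WT replicates 1 to 4 were 4019.7, 4289, 4033 and 4115 CPM, and in OPA1KO replicates 1 to 4 they were 3872, 4090.0, 4076 and 3983 CPM. The groups overlapped, with WT replicate 2 highest and OPA1KO replicate 1 lowest. The same regions held 0.408 ± 0.0028% of the counts of WT libraries and 0.403 ± 0.0073% of those of OPA1KO libraries (SD, n = 4 each). As a share of all counts at chosen gene-end regions, they held 0.831 ± 0.0066% and 0.829 ± 0.0091%. WT replicate 2 also stood highest at the other gene ends: its median log2 deviation from the mean of all libraries was 0.047 there and 0.083 at the respiratory genes.

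Of 46 genes counted with complex I by their symbol, 33 had lower values in OPA1KO libraries, with a median log2 fold change of −0.032. The 7 core genes code for the subunits that carry out catalysis in all organisms with this complex, and 5 of them were lower (median −0.032). At Ndufv2, an iron-sulfur subunit of the NADH-oxidising arm and the most accessible core gene per kb, WT libraries were at 87.1, 93.0, 95.1 and 97.0 CPM and OPA1KO libraries at 91.5, 84.1, 92.1 and 96.1 CPM. The groups overlapped through most of their range (−0.032 ± 0.085, edgeR adjusted p = 0.978). The highest core fold change was at Ndufs8, an iron-sulfur subunit close to the quinone site, with 86.8 ± 4.61 CPM in WT against 90.1 ± 4.04 CPM in OPA1KO libraries (SD, n = 4 each, 0.056 ± 0.086).

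Of 31 genes counted by their symbol as accessory genes of complex I, 22 were lower, with a median of −0.027. Most of their products surround the core and stabilise it, but Ndufa4 and its paralogue Ndufa4l2 are also among the 31. Ndufa9, whose product sits where the arms of the complex meet, had the lowest value. WT libraries were at 20.1, 17.9, 22.8 and 15.2 CPM and OPA1KO libraries at 12.2, 17.9, 14.1 and 16.6 CPM. The difference of −0.32 ± 0.17 did not pass (edgeR adjusted p = 0.813), and the lowest WT library lay below the highest 2 OPA1KO ones. Ndufb5, with the promoter it shares with Mrpl47, was at 115, 122, 109 and 108 CPM in WT against 113, 114, 125 and 102 CPM in OPA1KO libraries. Its log2 fold change was 0.0024 ± 0.084, with a 95% interval from −0.17 to 0.17. Ndufa4, whose product was first assigned to complex I and is now counted with complex IV, was at 74.8 ± 1.67 CPM in WT against 72.2 ± 4.97 CPM in OPA1KO libraries (SD, n = 4 each). Its paralogue Ndufa4l2, known as a gene induced by low oxygen, had a region shared with Stac3 at 8.60 ± 1.01 and 9.08 ± 1.56 CPM (SD, n = 4 each) and the highest accessory fold change, 0.073 ± 0.21.

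The 8 assembly factor genes of complex I, whose products help to build it and are absent from the finished enzyme, had 6 lower values and a median of −0.068. Ndufaf1 was at the lowest level of all 84 genes, with 7.15, 7.32, 8.23 and 4.30 CPM in WT against 6.97, 6.34, 5.90 and 3.77 CPM in OPA1KO libraries (−0.23 ± 0.26, edgeR adjusted p = 0.928). The lowest library of each group was its replicate 4, at 24 and 23 counts, and its 95% interval from −0.75 to 0.30 leaves room for changes larger than 1.5-fold downwards. Ndufaf2, which shares its region with the DNA repair gene Ercc8, had the highest value of this role (54.5 ± 4.81 and 58.7 ± 4.71 CPM, SD, n = 4 each, 0.11 ± 0.10). Ndufaf8 was at 95.1 ± 10.8 CPM in WT against 99.97 ± 7.68 CPM in OPA1KO libraries (SD, n = 4 each, 0.071 ± 0.092).

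Complex II, succinate dehydrogenase, has 4 subunits, all nuclear, and links the tricarboxylic acid cycle to the respiratory chain. Sdha, the flavoprotein that oxidises succinate, was at 57.6, 50.2, 57.2 and 56.7 CPM in WT against 49.4, 61.8, 52.3 and 57.7 CPM in OPA1KO libraries. Sdhb was at 71.2, 67.9, 62.4 and 67.1 CPM in WT against 70.8, 70.9, 74.7 and 67.1 CPM in OPA1KO libraries. For these catalytic subunits the groups overlapped and the log2 fold changes were −0.0045 ± 0.10 and 0.077 ± 0.092 (edgeR adjusted p = 0.998 and 0.934). The membrane anchors had lower values. Sdhc was at 45.2, 45.5, 47.5 and 43.6 CPM in WT against 44.0, 44.2, 37.9 and 40.3 CPM in OPA1KO libraries, and Sdhd at 47.4, 58.6, 60.5 and 50.2 CPM and at 48.8, 51.1, 50.7 and 48.4 CPM. Sdhc and Sdhd had log2 fold changes of −0.13 ± 0.11 and −0.12 ± 0.11 (edgeR adjusted p = 0.896 and 0.900). The difference between anchors and catalytic subunits was not tested. The regions of Sdha, Sdhc and Sdhd each also lie at an end of another gene, among them Ccdc127 for Sdha and Timm8b for Sdhd.

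**Figure D4:**
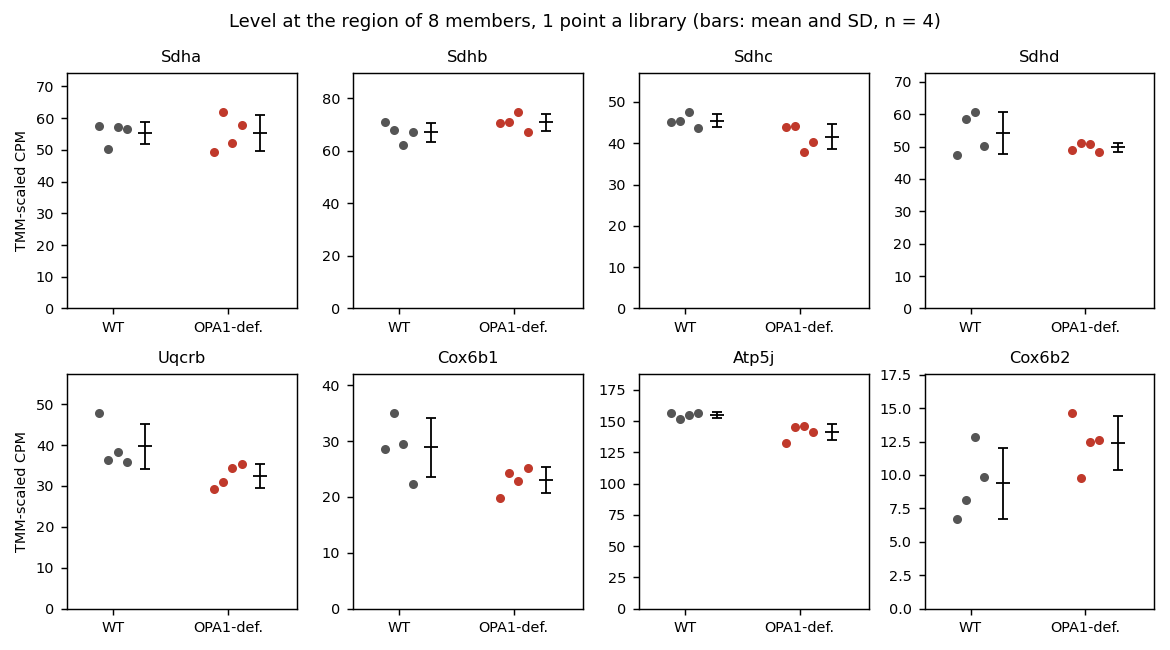
Level in TMM-scaled CPM (y axis, from 0) of the chosen region of 8 genes in each WT library (grey) and each OPA1KO library (red), with the mean and SD of each group (n = 4) beside the points. The top row holds the 4 genes of complex II, and among the 8 panels only Uqcrb and Atp5j have groups that do not overlap.

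Of the 8 complex III genes 5 were lower (median −0.058). Uqcrb, a small subunit close to a ubiquinone site, had the smallest unadjusted p of the 84 genes (0.0258). Its region, on chromosome 13 from 66904778 to 66905532, also touches an end of the gene model Gm10767. WT libraries were at 47.9, 36.5, 38.4 and 35.9 CPM and OPA1KO libraries at 29.2, 31.0, 34.5 and 35.3 CPM. The groups did not overlap, but the lowest WT value and the highest OPA1KO value were less than 1 CPM apart, and WT replicate 1 stood well above the other WT libraries. The log2 fold change was −0.29 ± 0.12 (edgeR adjusted p = 0.717) and without WT replicate 1 it was −0.18. Uqcrc1, which encodes a core protein of the complex, had the highest value of this role, with 36.6, 47.8, 35.4 and 30.1 CPM in WT against 43.4, 40.6, 41.3 and 41.3 CPM in OPA1KO libraries (0.15 ± 0.12, edgeR adjusted p = 0.894). There the OPA1KO libraries lay close together and WT replicate 2 lay above them all. Uqcrq, a small ubiquinone-binding subunit, had the highest density of this role (135 CPM per kb in WT). Its region, shared with the oocyte growth factor gene Gdf9, was at 145 ± 15.7 CPM in WT against 138 ± 13.4 CPM in OPA1KO libraries (SD, n = 4 each). Uqcr10 (−0.040 ± 0.12) and the hinge protein gene Uqcrh (0.013 ± 0.088) had values near 0.

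Complex IV, cytochrome c oxidase, held both ends of the range, and 9 of its 11 genes with a region were lower (median −0.077). Cox6b1, whose product faces the intermembrane space where the monomers of the enzyme meet, was at 28.6, 35.1, 29.5 and 22.2 CPM in WT against 19.8, 24.3, 22.8 and 25.3 CPM in OPA1KO libraries. The lowest WT library lay inside the OPA1KO range and the other 3 above it. The log2 fold change was −0.33 ± 0.15 (unadjusted p = 0.0323, edgeR adjusted p = 0.742), and it was −0.22 without WT replicate 2. This region, on chromosome 7 from 30625969 to 30626378, covers the promoter shown among the sequences and touches no other gene. Cox6b2, its testis isoform, was at 6.69, 8.10, 12.9 and 9.86 CPM in WT against 14.7, 9.79, 12.5 and 12.6 CPM in OPA1KO libraries. Its log2 fold change was 0.42 ± 0.21 (edgeR adjusted p = 0.788), and 0.29 without WT replicate 1. The groups overlapped, and the region, on chromosome 7 from 4752479 to 4753271, also touches an end of Fam71e2.

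Several complex IV subunits exist as a common and a tissue-restricted form. Both Cox6b1 and Cox6b2 had a region, whereas for other pairs the rule found one for a single form. Cox4i1, the common form, was at 69.3 ± 7.57 CPM in WT against 67.0 ± 5.36 CPM in OPA1KO libraries (SD, n = 4 each), in a region shared with Emc8 and Gm27021, while Cox4i2, known from lung, had none within 1 kb. Cox8a was at 63.2 ± 4.64 and 62.1 ± 5.02 CPM (SD, n = 4 each), while neither Cox8b, the muscle form, nor Cox8c, the testis form, had a region. Cox7b was at 8.14 ± 1.22 and 7.61 ± 1.27 CPM (SD, n = 4 each), while the nearest region to Cox7b2, a testis form, was 619788 bp away. Cox7a1, the muscle form of its subunit, did have a promoter region, with 29.6, 32.4, 28.7 and 30.8 CPM in WT against 29.6, 23.9, 29.2 and 22.0 CPM in OPA1KO libraries (−0.21 ± 0.13, edgeR adjusted p = 0.847), while for Cox7a2, the common form, none lay at a gene end. Its relative Cox7a2l, which takes part in forming supercomplexes of complexes III and IV, was at 40.2 ± 5.65 and 44.4 ± 2.91 CPM (SD, n = 4 each, 0.14 ± 0.12). Cox5b, with the highest density of this role (132 CPM per kb in WT), was at −0.030 ± 0.10.

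Complex V, ATP synthase, was the only role in which fewer genes were lower, 7, than higher, 8, and its median was 0.015. That a role differed from another was not tested. Atp5j, a subunit of the peripheral stalk that holds the catalytic head still, had the highest level of the 84 genes. Its region on chromosome 16, from 84834671 to 84835789, covers the starts of both Atp5j and Gabpa, so its value stands for either gene. WT libraries were at 156, 152, 155 and 157 CPM and OPA1KO libraries at 132, 146, 146 and 141 CPM. The groups did not overlap, the WT libraries lay within 5 CPM of each other, and the difference was small (−0.13 ± 0.075, unadjusted p = 0.0902, edgeR adjusted p = 0.825). Of the genes of the catalytic head with a region, Atp5b, Atp5a1 and Atp5e (0.067 ± 0.095) had values above 0. Atp5c1 was below 0 (−0.072 ± 0.086). Atp5b was at 88.6, 120.3, 111 and 103 CPM in WT against 109.8, 102, 111 and 104 CPM in OPA1KO libraries (0.017 ± 0.090, edgeR adjusted p = 0.991), with WT replicates 1 and 2 outside the OPA1KO range on opposite sides. Atp5a1, the alpha subunit, was at 25.3 ± 1.84 CPM in WT against 26.7 ± 4.44 CPM in OPA1KO libraries (SD, n = 4 each), the highest value of this role (0.080 ± 0.14). Atp5l was at 17.7 ± 1.92 and 17.1 ± 2.48 CPM (SD, n = 4 each, −0.053 ± 0.16).

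**Figure D5:**
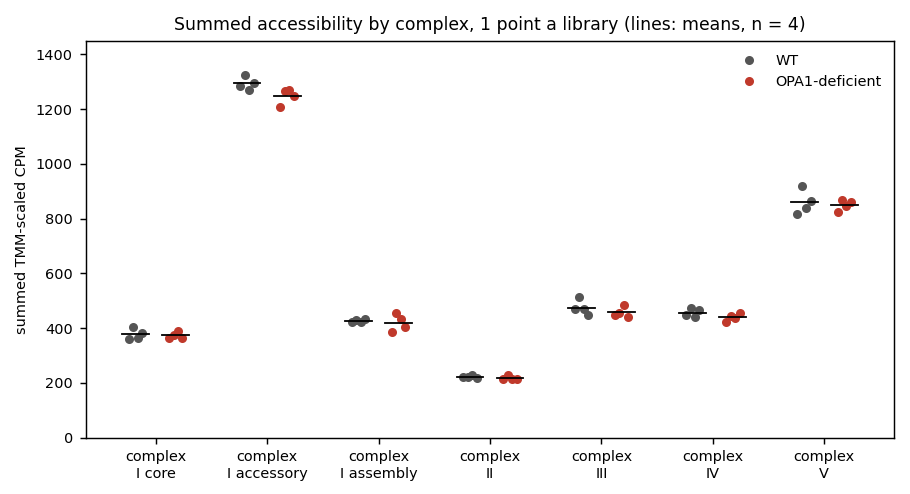
Summed TMM-scaled CPM (y axis) over the chosen regions of each role, 1 point a library, with WT in grey, OPA1KO in red and lines at the group means (n = 4). The sums of the groups overlap in each role, and the accessory genes run from 1270.3 to 1326 CPM in WT against 1208 to 1271.4 CPM in OPA1KO libraries.

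Per library, the sums for core complex I ran from 359 to 406 CPM in WT against 365 to 388 CPM in OPA1KO libraries, those for assembly factors from 423 to 435 and from 387 to 454 CPM, and those for complex II from 218 to 228 and from 213 to 228 CPM. For complex III they ran from 449.5 to 514 and from 441 to 483 CPM, for complex IV from 439 to 474 and from 424 to 455 CPM, and for complex V from 815 to 919 and from 824 to 868 CPM. The sums overlapped in each role. They came closest to parting for the accessory genes, where the lowest WT library was at 1270.3 CPM and the highest OPA1KO library at 1271.4 CPM. By the median log2 deviation of a role's genes from the mean of all libraries, which weighs each gene alike, the groups did not overlap for the accessory genes, at 0.019 to 0.078 in WT against −0.022 to 0.013 in OPA1KO libraries, and overlapped in the other roles. At other gene-end regions that median ran from −0.010 to 0.047 in WT against −0.042 to 0.014 in OPA1KO libraries.

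Motifs and fold changes were set side by side for the 70 genes with both a promoter entry and a chosen region. For Ndufb6, with an ETS core and an NRF1 arm, and Ndufa11, with an NRF1 arm, that region lies outside the window. Genes with an ETS core in the window had 9 of 19 lower and a median of 0.0085, and those without one 38 of 51 lower and −0.040. With an NRF1 arm 10 of 14 were lower (−0.025) and without it 37 of 56 (−0.036). With a YY1 core 8 of 12 were lower (−0.079) and without it 39 of 58 (−0.032). Whether fold changes differed with a motif was not tested.

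A region was not found within 1 kb of the ends of 11 genes: Atp5d, Atp5g1, Cox4i2, Cox5a, Cox7a2, Cox7b2, Cox8b, Cox8c, Ndufa6, Ndufb4b and Ndufb4c. Ndufb4b and Ndufb4c are close copies of Ndufb4, where counting may be uncertain. For Atp5d, Cox5a and Cox7a2, subunit genes of complexes V and IV that are used in most tissues, regions inside the gene span lay over the RefSeq starts. At the Atp5d start the level was 47.5 CPM in WT against 49.3 CPM in OPA1KO libraries, and at the Cox5a start 44.9 and 45.3 CPM. Cox7a2, the common partner of Cox7a1, had a region on chromosome 9 from 79759570 to 79760053, with 76.2, 80.7, 75.5 and 71.0 CPM in WT against 60.2, 63.3, 60.5 and 73.8 CPM in OPA1KO libraries. All OPA1KO libraries but 1 lay below all WT libraries, and the difference of −0.24 ± 0.096 had an unadjusted p of 0.0187 and did not pass (edgeR adjusted p = 0.686).

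These 3 genes and 20 others held 31 tested regions besides the chosen ones, inside the span or within 1 kb of it. None was called by edgeR, 16 were lower and 15 higher, and 3 (9.68%) had an unadjusted p under 0.05, against 6.38% of all tested regions. These were the region of Cox7a2 and 2 inside Sdhb. In 2 of the 31 the groups did not overlap, against 3.95% of all tested regions. One of the latter, on chromosome 4 from 140976494 to 140976694, was at 0.760, 1.56, 2.74 and 1.08 CPM in WT against 3.27, 3.26, 3.35 and 2.79 CPM in OPA1KO libraries. The groups did not overlap, at a very low level (1.08 ± 0.42, edgeR adjusted p = 0.646). The other, from 140964687 to 140964922, was at 9.43, 9.04, 8.44 and 9.15 CPM in WT against 7.68, 7.79, 6.17 and 3.94 CPM in OPA1KO libraries, again without overlap and in the opposite direction (−0.50 ± 0.23, edgeR adjusted p = 0.757). These regions were named after their values were seen.

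Genes that serve the complexes were taken as 3 lists, to be read against other gene-end regions, of which 61.7% were lower, 4.06% had an unadjusted p under 0.05 and the median was −0.035. The first held assembly factors and carriers outside the symbol rule, with genes for electron transfer, coenzyme Q synthesis, mitochondrial ADP/ATP and phosphate carriers, and porins. Of its 66 regions, 39 (59.1%) were lower (median −0.040) and edgeR called 0, with 4 at an unadjusted p under 0.05. These were Sdhaf3, an assembly factor of complex II (60.3 ± 7.24 and 49.0 ± 10.6 CPM, SD, n = 4 each, −0.30 ± 0.13), Cox16, an assembly factor of complex IV (29.9 ± 0.535 and 23.9 ± 4.57 CPM, −0.32 ± 0.14), Foxred1, an assembly factor of complex I whose region also touches an end of Srpr (−0.17 ± 0.079), and Uqcc2, an assembly factor of complex III, which alone was higher (39.2 ± 3.31 and 47.9 ± 7.39 CPM, 0.29 ± 0.12). The second list held regulators of nuclear respiratory genes, with Tfam, Tfb1m, Tfb2m and Polrmt, which serve mitochondrial DNA or its transcripts. Of its 17 regions, 13 (76.5%) were lower (median −0.071), edgeR called 0 and 1 had an unadjusted p under 0.05. That was the region of Tfb1m, a mitochondrial methyltransferase gene (133 ± 8.08 and 119 ± 6.89 CPM, −0.17 ± 0.081). Of the regulators of nuclear genes, Nrf1 was at −0.11 ± 0.10, Yy1 at −0.0039 ± 0.079 and Sp1 at 0.045 ± 0.076, while Gabpa shares its region with Atp5j. Of 19 regions of genes for cristae and mitochondrial fusion or fission, 11 (57.9%) were lower (median −0.034), edgeR called 0 and 1 had an unadjusted p under 0.05, that of the fission factor Mff (46.7 ± 3.21 and 39.6 ± 2.13 CPM, −0.24 ± 0.11). Whether these lists differed from the respiratory genes was not tested.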

How the data were processed

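The deposited values are counts of ATAC-seq reads over 1 region set shared by the 8 libraries: whole numbers without normalization, whose totals differ between libraries. The submitters' processing notes name the builds mm10 and GRCm38 and, with no roles, MACS2 2.1.0.20150603, cutadapt 1.9, bedtools, SAMtools and Picard 1.65. Which aligner made the alignments, how regions were merged into 1 set and whether read ends were shifted are not given in the sources used here. Starts are printed as in the table, and whether they count from 0 or 1 was not given.

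Regions were filtered with filterByExpr (659 removed), scaled with TMM factors and tested with edgeR 4.0.16 in R 4.3.3 (estimateDisp, robust glmQLFit, glmQLFTest) over all 8 libraries without covariates, with Benjamini-Hochberg adjustment over 59247 regions and calls at 0.05. The procedure was tested on simulated data. The deviation of a library is that of log2(CPM + 1) from the mean of the 8 libraries. Alternatives were other scaling (DESeq2 size factors, total counts, loess offsets), DESeq2 1.42.0, voom from limma 3.58.1, other filters (none, or a CPM of at least 2 in 4 libraries), a 500 bp window, the nearest region, a fit of gene-end regions alone, a replicate block, and leaving out each library. Further alternatives were chosen after seeing the data. They took the region at the RefSeq promoter, only members whose chosen region overlaps that promoter, or only regions that touch no other gene. Gene spans came from a RefSeq table on GRCm38.p6 without strand or exons, so exons and introns were not analysed here. Motifs were matched exactly, on both strands, to RefSeq promoter windows.

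Same-numbered libraries of the groups did not deviate together (correlations of their deviations over regions of −0.143 to −0.0099). That gives no sign of pairing by number, but it cannot exclude pairing, because paired libraries need not deviate together over regions. The members, lists, tests and naming rule were chosen with earlier results of these data known. That rule named, for each role, the members with the lowest and highest fold change and density, all of complex II, members at an unadjusted p under 0.05 or without overlap, and isoform pairs. One member that the rule names, and the name of a neighbouring gene, are not reported here.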

Additional observations from a re-analysis of the deposited data

Results flagged for a closer look

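Groups of 4 libraries were taken in both genotypes for the named genes, the shares of counts and the summed levels. In 2 of 84 such groups the lowest library stood apart from the other 3, where chance gives about 1 group in 20. For Sdha in WT the gap made up 0.872 of the group's range, above the critical value of 0.829: WT replicate 2 was at 50.2 CPM and the others at 56.7 to 57.6 CPM. For Uqcrq in OPA1KO libraries the gap made up 0.832 of the range, with replicate 4 at 118 CPM and the others at 143 to 148 CPM.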

How the results depend on the processing

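No member was called under any of the 22 alternatives, and the smallest adjusted p among the 31 named members was 0.420, for Uqcrb without WT replicate 2. Under the alternatives other than leaving out a library, the median log2 fold change ran from −0.043 to −0.0058, and its difference from other gene-end regions (−0.0014 in the reported fit) from −0.0073 to 0.0025. Over the fits that left out 1 library, 44 to 59 of 84 members were lower, 0 were called, the median ran from −0.056 to −0.0058 and its difference from −0.021 (without WT replicate 1) to 0.014, so that the sign of that difference depends on the library left out. Among the 41 members whose region touches no other gene, a restriction chosen after seeing the data, 29 were lower; with the nearest region the share of counts in WT was 0.402% in place of 0.408%.

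With a replicate block, 56 members were lower with a median of −0.035, 0 were called and 0 had an unadjusted p under 0.05, against 2 without it; no other call changed. Of 650 values of named members under the alternatives, 33, at 13 members with fold changes near 0, turned sign. Sdha was at 0.013 with total counts, 0.021 with loess offsets and 0.023 with gene-end regions alone, Cox5b at 0.0030, Cox8a at 0.0089 and Ndufv2 at 0.0016 with loess offsets, and Cox8a at 0.0079 with gene-end regions alone. Leaving out 1 library gave ranges of −0.059 to 0.047 for Sdha, −0.090 to 0.043 for Cox5b, −0.062 to 0.028 for Cox8a, −0.058 to 0.0051 for Ndufv2, −0.055 to 0.087 for Atp5b, −0.16 to 0.010 for Atp5l, −0.10 to 0.017 for Cox4i1, −0.10 to 0.021 for Uqcr10, −0.047 to 0.052 for Ndufb5, −0.027 to 0.047 for Uqcrh, −0.19 to 0.0032 for Cox7b, −0.0022 to 0.16 for Atp5a1 and −0.035 to 0.16 for Ndufa4l2. The cause was not tested. Median counts per member region were 213 to 314 a library, and precision is lowest for members near 10 CPM, such as Ndufaf1, Cox6b2 and Cox7b.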
